A study of Mus musculus with 47 samples.

Results

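Transcripts of 8 genes of prolactin receptor signalling were followed through hormone treatment and progesterone receptor blockade in the mouse mammary gland. They were the receptor Prlr, the kinase Jak2, the transcription factors Stat5a and Stat5b, and the feedback regulators Socs1, Socs2, Socs3 and Cish. They were taken by symbol from the deposited table, which held 21980 usable genes, and all 8 were present. All 8 passed the filter on low values in every fraction.

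Prolactin binding to its receptor activates the associated kinase JAK2, which phosphorylates STAT5 proteins, and these enter the nucleus and act on target genes, milk protein genes among them. CISH and the SOCS proteins are feedback inhibitors of cytokine receptors, and several are themselves induced by STAT5. In the mammary gland, progesterone and prolactin act together in side branching and alveolar development, and STAT5A is the STAT5 protein most needed for alveolar differentiation.

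Ovariectomized FVB mice were treated for 14 days in 4 ways: a sham treatment, estradiol (E2) with progesterone (EP), EP with TPA, and EP with RU486. TPA is taken here as telapristone acetate, and RU486 is mifepristone. Both are antagonists of the progesterone receptor, and mifepristone also binds the glucocorticoid receptor. Every group, sham included, lacked ovaries, no group received estradiol alone or an antagonist alone, and doses and ages were not given in the sources used here. Cells sorted by flow cytometry as luminal mature (LM), luminal progenitor (LP) and mammary stem cells (MSC) gave 15, 16 and 16 libraries from 20 mice, with 4 mice per group except 3 in LM EP. Mice are named by their number in the labels.

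The values are on the scale of FPKM (fragments per unit of transcript length, relative to the size of the library) and had been shifted and rescaled by gene within 3 sets of libraries, so levels were not compared between LM and the other fractions. A value of 0 can be a level below that shift and is not read as absence, read depth is unknown, and the shift alters the size of a fold. The sum of all deposited values of a library lay between 281351 and 349128 for LM, between 297710 and 358375 for LP, and between 217977 and 356258 for MSC. Levels below are rescaled for the overall level of each library unless called deposited. Levels and sums of cell type markers are deposited values throughout, without that rescaling. Differences are limma estimates of mean log2(FPKM + 1) between groups, and "rose" or "fell" means an adjusted p under 0.05 over all genes of the fraction.

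The sorted fractions did not keep the same marker profile under treatment, and Prlr is itself high in hormone-receptor-positive luminal cells. In LM, deposited Foxa1, a factor of those cells, was 10.3 to 67.6 in sham and 15.4 to 41.2 in EP, but was listed at 0 in 4 of 4 EP+RU486 and 3 of 4 EP+TPA libraries. Pgr, the progesterone receptor, was at 0 in 3 of 4 libraries of each antagonist group. Over the 12 luminal mature markers, the summed deposited level ran from 4415 to 6145 in sham, 2216 to 6283 in EP, 1507 to 5108 in EP+TPA and 254 to 1821 in EP+RU486. The 10 progenitor markers summed to 2932 to 7457 in sham, 357 to 507 in EP, 383 to 7149 in EP+TPA and 7652 to 8832 in EP+RU486. Ltf, Lcn2 and Csn3 weighed most in this sum (sham medians 2078, 838 and 620) and were lower in EP (medians 0, 183 and 0). Median Cd14 and Aldh1a3 were lower in EP too. In contrast, median Kit, Elf5, Itga2 and Rspo1 were higher in EP (60.2, 19.8, 2.84 and 115) than in sham (38.9, 2.71, 1.95 and 0). The libraries overlapped for Kit (0 to 91.6 in EP, 16.9 to 48.3 in sham), Elf5 (0 to 23.15 and 0 to 6.47) and Itga2 (1.93 to 3.89 and 0 to 3.57). Most antagonist LM libraries thus had Foxa1 and Pgr at 0. The luminal mature sum rested mainly on Krt8 and Krt18 (sham medians 1936 and 2969). Median Gata3 was higher in EP+TPA and EP+RU486 (47.0 and 50.7) than in sham (29.3). EP also differed from sham: median Cited1 and Esr1 were lower (3.19 and 2.83 against 165 and 23.9). Median Areg, Wnt4 and Gata3 were higher in EP (98.8, 19.0 and 56.0) than in sham (28.3, 14.5 and 29.3). The EP+TPA library of mouse 332 stood apart from its group: Foxa1 was 3.70 and the progenitor gene Csn3 was 0, whereas Csn3 was 2261 to 2637 in the other 3. Among the EP libraries, that of mouse 311 had a luminal mature sum of 6283, Foxa1 of 41.2 and Pgr of 10.3. Mice 306 and 327 had sums of 2456 and 2216, Foxa1 of 18.3 and 15.4, and Pgr of 2.83 and 1.80. Csn3 was 0 in all 3. The part of these markers in the LM fits without mouse 311 was not tested.

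In LP the EP group stood apart by its progenitor markers. Its summed progenitor markers were 549 to 3489, below the 5968 to 10680 of sham, the 6084 to 7866 of EP+TPA and the 5956 to 7601 of EP+RU486. Median Rspo1 and Itga2 of that list were higher in EP (75.5 and 5.63) than in sham (4.81 and 3.18). Foxa1 was 26.5 to 72.6 in the LP EP libraries of mice 306, 322 and 327 and 6.45 in that of mouse 311. It was 6.77 to 16.1 in sham, 2.43 to 3.84 in EP+TPA and 2.78 to 4.61 in EP+RU486. Cited1 and Esr1 also lay below every sham library in both antagonist groups, whereas median Gata3 was 57.7 and 68.1 against 54.7 in sham. Summed luminal mature markers were 4590 to 8246 in sham, 3207 to 5400 in EP, 2607 to 4881 in EP+TPA and 2341 to 3820 in EP+RU486. This sum rested mainly on Krt8 and Krt18 (sham medians 2349 and 3313), which were lower in EP (1387 and 1608). Median Cited1 and Esr1 were lower in EP too. By contrast, median Areg, Wnt4, Pgr, Prom1, Ly6a and Tbx3 were higher in EP (305, 26.7, 6.18, 27.8, 211 and 18.6). In sham these medians were 13.8, 5.06, 1.37, 9.76, 92.3 and 9.66. Median Foxa1 and Gata3 were also higher in EP. Of these higher genes, the EP and sham libraries overlapped for all but Areg. In these bulk libraries, fewer cells of a type and less RNA per cell cannot be told apart, and the part of the marker shifts in the results below was not tested.

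Of the members, 3 carried the letters TTCNNNGAA, the core of the motif that STAT proteins recognise, near an annotated start. The motif reads the same on both strands. RefSeq start windows of 300 bases (250 before the start and 50 from it on, build GRCm38.p6) were found for 7 members, 11 windows in all, and 3 of these windows held the motif. Socs2 had no such window and was not searched. Among all 32851 windows of that length, 8.3% held at least 1 copy and 0.457% held 2 or more. The windows of 30 bases around the matches are shown because the Cish start held 2 copies, and Cish is a classical STAT5-induced gene. Capitals mark the motif.
Cish (chr9:107296654-107296683, plus strand): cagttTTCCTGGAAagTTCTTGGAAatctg
Socs3 (chr11:117969502-117969531, minus strand): agaaaccagccTTCTTAGAAgggagggggg
Prlr, 1 of its 3 starts (chr15:10223785-10223814, plus strand): ggcaaaatgagTTCTAGGAAtaagggatat
The first Cish copy began at the start base, the Socs3 copy 154 bases and the Prlr copy 110 bases upstream. These matches describe letters and no binding was measured.

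With EP, Stat5a and Socs2 rose in both luminal fractions, and Stat5b rose in LM. Jak2 rose and Cish fell in LP. Prlr, Socs1 and Socs3 did not pass the test in either fraction. Of the 8 members, 3 rose and 0 fell in LM, where 19.7% of all genes passed (10.2% higher and 9.43% lower). In LP 3 rose and 1 fell, where 32.7% of all genes passed (16.7% higher and 16% lower). The EP and sham libraries did not overlap for 3 members in LM, against 30.2% of all genes, and for 3 members in LP, against 28.6%.

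**Figure D1:**
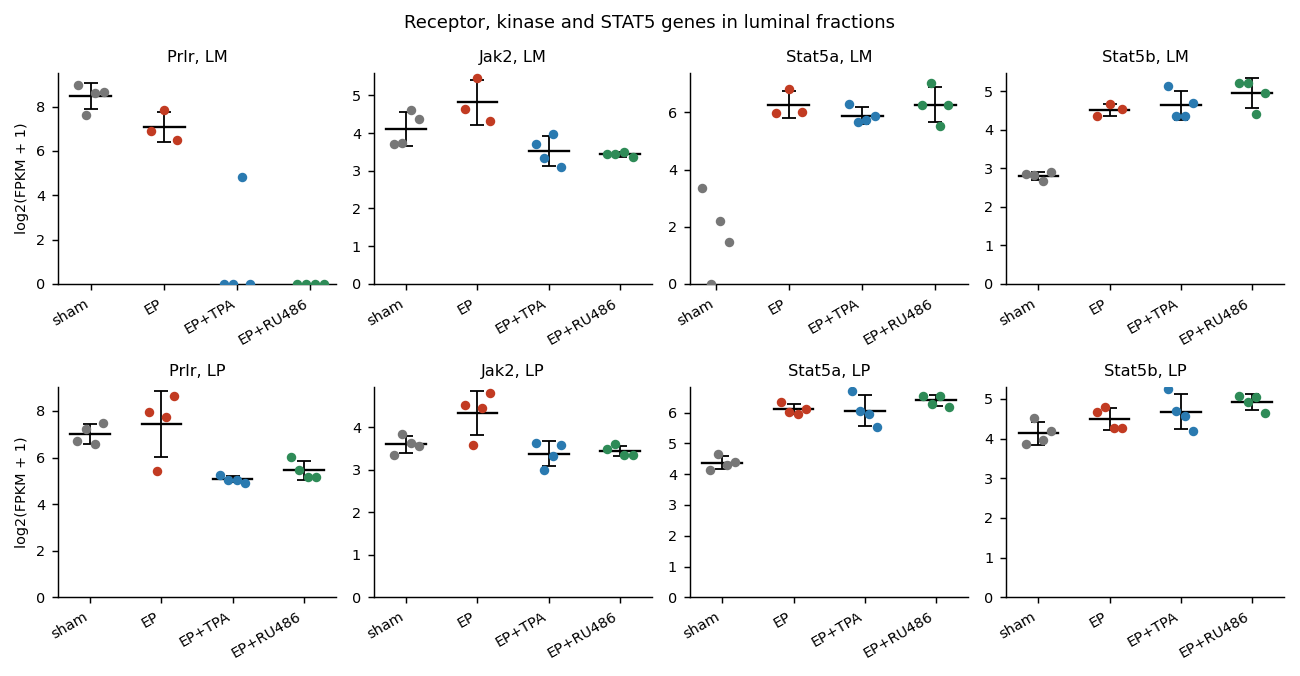
Rescaled levels of Prlr, Jak2, Stat5a and Stat5b as log2(FPKM + 1), 1 point per library, by treatment in LM (top) and LP (bottom). Horizontal lines with bars are mean ± SD and are not drawn for groups with a library at 0. Stat5a is high in the hormone groups and low in sham, while Prlr is low in the antagonist groups.

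Prlr encodes the receptor itself. In LM it was 510, 198, 390 and 399 in sham (mice 305, 301, 310 and 326) and 119, 229 and 88.8 in EP (mice 306, 311 and 327). Under EP+TPA it was listed at 0 in mice 312, 328 and 336 and was 27.3 in mouse 332, and under EP+RU486 it was listed at 0 in all 4. The antagonist libraries all lay below every EP and every sham library, whereas EP and sham overlapped. Prlr fell with EP+TPA (adjusted p = 0.0063) and with EP+RU486 (adjusted p = 0.0011) against EP, and also against sham (adjusted p = 0.000181 and 4.75e-05). No fold is given for groups at 0. The fall with EP+TPA from EP was lost when only the 2 groups were fitted (adjusted p = 0.133), and without EP mouse 311 its adjusted p was 0.0334. Without mouse 332 it still passed, but the EP+TPA group was then 0 throughout, with no spread of its own. The EP minus sham difference was -1.39 (95% interval -3.45 to 0.67, adjusted p = 0.333), and it passed when only the 2 groups were fitted (adjusted p = 0.0402) or libraries were weighted (adjusted p = 0.0169). The libraries with Prlr at 0 were the same in which Foxa1 was at 0, and the library of mouse 332 kept both.

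In LP, Prlr was 103, 148, 96.1 and 178 in sham (mice 301, 305, 310 and 326) and 250, 41.3, 210 and 404 in EP (mice 306, 311, 322 and 327). It was 37.2, 31.7, 32.2 and 29.4 in EP+TPA (mice 312, 323, 328 and 336) and 63.7, 43.6, 34.4 and 34.4 in EP+RU486 (mice 304, 308, 324 and 329). All libraries of both antagonist groups lay below all sham libraries, while the EP library of mouse 311 fell among the EP+RU486 libraries. Against EP, Prlr fell by 2.37 on the log2 scale with EP+TPA (SE 0.50, adjusted p = 0.00413) and with EP+RU486 the difference was -1.99 (SE 0.50, adjusted p = 0.0107). The second of these was lost when only the 2 groups were fitted (adjusted p = 0.0638). Against sham it fell with EP+TPA (-1.94, adjusted p = 0.0359), a call lost with any single sham or EP+TPA library left out (adjusted p 0.0588 to 0.102) and with no filter (adjusted p = 0.0557), and did not pass with EP+RU486 (-1.56, adjusted p = 0.0587). The latter passed with a pseudocount of 0.1 (adjusted p = 0.0449), with only the 2 groups fitted (adjusted p = 0.00237) and with library weights (adjusted p = 0.0034). EP minus sham was 0.44 (adjusted p = 0.543), and without mouse 311 it was 1.12 (adjusted p = 0.00325). Without that mouse the falls from EP were -3.05 with EP+TPA and -2.67 with EP+RU486 (adjusted p = 4.39e-07 and 1.73e-06).

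The LP library of mouse 311 also differed in markers from the other EP libraries. Its deposited Prlr was 49.7 beside Foxa1 of 6.45 and Csn3 of 1130. In mice 306, 322 and 327 deposited Prlr was 314, 256 and 485, Foxa1 was 38.2, 26.5 and 72.6, and Csn3 was 175, 202 and 106. Among these 4 libraries the order of Prlr was that of Foxa1 and the reverse of that of Csn3. The LP library of mouse 327, the highest in Prlr, Jak2 and Socs2, had summed endothelial, immune, fibroblast and skeletal muscle markers of 537, 221, 278 and 200. In every other LP library these sums were at most 281, 157, 152 and 19.7. Their part in the fits without mouse 311 was not tested.

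**Figure D2:**
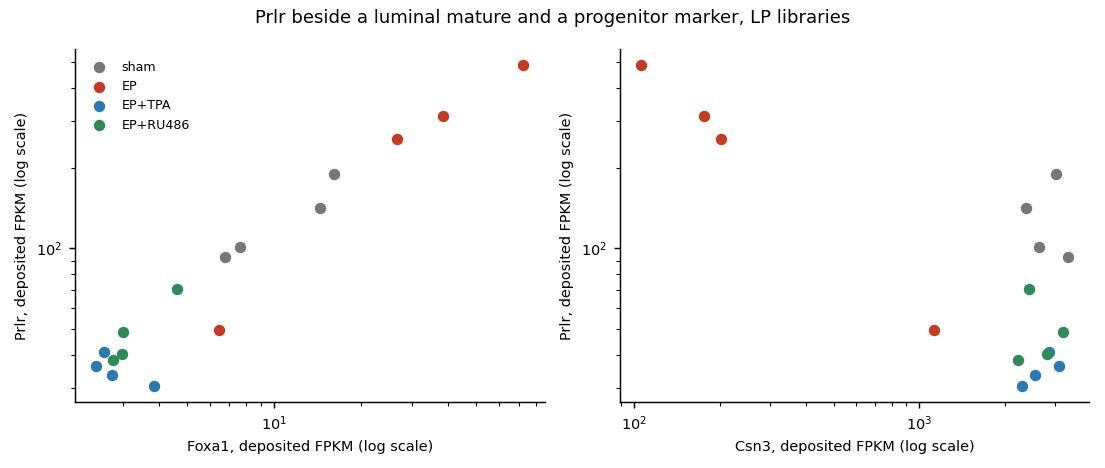
Deposited Prlr against deposited Foxa1 (left) and Csn3 (right) in the 16 LP libraries, both axes on log scales, 1 point per library coloured by treatment. The 3 EP libraries with Prlr from 256 to 485 have Foxa1 from 26.5 to 72.6 and Csn3 from 106 to 202, and the EP library at 49.7 lies apart from them.

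Jak2 encodes the kinase bound to the receptor. In LM it was 12.0, 12.3, 23.2 and 19.8 in sham (mice 305, 301, 310 and 326) and 24.1, 43.2 and 19.0 in EP (mice 306, 311 and 327). It was 12.1, 9.05, 14.8 and 7.57 in EP+TPA (mice 312, 328, 332 and 336) and 9.93, 9.92, 10.2 and 9.21 in EP+RU486 (mice 308, 313, 329 and 333). Every antagonist library lay below every EP library. Jak2 fell by 1.28 with EP+TPA (SE 0.29, adjusted p = 0.0215) and by 1.38 with EP+RU486 (SE 0.29, adjusted p = 0.00585) against EP. The EP+TPA call was lost when only the 2 groups were fitted (adjusted p = 0.147) and without EP mouse 306 or 311 or TPA mouse 328 or 336 (adjusted p 0.0501 to 0.0875). EP minus sham was 0.71 (adjusted p = 0.0937), and it passed on the values as deposited (0.91, adjusted p = 0.0392).

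In LP, Jak2 was 9.24, 13.4, 11.4 and 10.9 in sham (mice 301, 305, 310 and 326) and 22.01, 10.9, 20.7 and 26.9 in EP (mice 306, 311, 322 and 327). It was 6.95 to 11.3 in EP+TPA and 9.13 to 11.2 in EP+RU486. The EP libraries of mice 306, 322 and 327 lay above every other LP library, and that of mouse 311 lay among those other libraries. Jak2 rose with EP (0.74, SE 0.21, adjusted p = 0.0138) and was lower than EP with EP+TPA (-0.96, adjusted p = 0.00506) and EP+RU486 (-0.89, adjusted p = 0.00716). With only the 2 groups fitted, the EP minus sham and EP+TPA minus EP calls were lost (adjusted p = 0.0538 and 0.0544). Without mouse 311 the rise with EP was 0.99 (adjusted p = 0.000164). Against sham, neither antagonist group passed (-0.22 and -0.15).

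Stat5a encodes the STAT5 protein that predominates in mammary epithelium. In LM it was 9.20, 0, 3.56 and 1.77 in sham (mice 305, 301, 310 and 326) and 62.5, 111 and 64.3 in EP (mice 306, 311 and 327). It was 77.2, 49.7, 51.5 and 58.0 in EP+TPA (mice 312, 328, 332 and 336) and 76.2, 129, 45.3 and 75.1 in EP+RU486 (mice 308, 313, 329 and 333). All 11 libraries given EP, with or without an antagonist, lay above all 4 sham libraries. Stat5a rose by 4.52 with EP (SE 0.58, adjusted p = 0.00036), and with the sham group near 0 this size depends on the pseudocount (5.59 with 0.1 in place of 1). It also exceeded sham with EP+TPA (4.14, adjusted p = 0.000203) and EP+RU486 (4.52, adjusted p = 8.89e-05). The antagonist groups minus EP were -0.39 (95% interval -1.63 to 0.86) and -0.01 (-1.25 to 1.24).

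In LP, Stat5a was 16.7, 24.2, 18.6 and 20.2 in sham (mice 301, 305, 310 and 326) and 80.3, 64.2, 61.7 and 69.3 in EP (mice 306, 311, 322 and 327). It was 105, 66.3, 60.6 and 45.2 in EP+TPA and 93.1, 77.1, 93.3 and 72.0 in EP+RU486. All 12 libraries given EP again lay above the 4 sham libraries, and mouse 311 did not stand apart. Stat5a rose by 1.75 with EP (SE 0.20, adjusted p = 1.03e-05), with EP+TPA by 1.70 (adjusted p = 9.43e-05) and with EP+RU486 by 2.03 (adjusted p = 1.49e-05) over sham. Relative to EP, the antagonist groups differed by -0.05 (95% interval -0.47 to 0.36) and 0.28 (-0.14 to 0.69).

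Stat5b, the neighbouring and near-identical paralogue, had a narrow sham group in LM, at 6.20, 6.06, 5.35 and 6.53 (mice 305, 301, 310 and 326). It was 19.3, 24.3 and 22.1 in EP (mice 306, 311 and 327), 19.5 to 34.4 in EP+TPA and 20.2 to 36.4 in EP+RU486. All 11 libraries given EP were above sham, with rises of 1.70 (SE 0.23, adjusted p = 0.000294), 1.83 (adjusted p = 4.21e-05) and 2.14 (adjusted p = 7.36e-06) for EP, EP+TPA and EP+RU486. In LP the sham libraries were 13.5 to 22.1 and the EP libraries 18.1 to 27.0, and they overlapped. The LP difference was 0.37 (adjusted p = 0.187), and 0.65 (adjusted p = 0.0207) on the values as deposited. Stat5b was higher than sham with EP+RU486 in LP (0.78, adjusted p = 0.0228), a call lost without sham mouse 301 or 310 or RU486 mouse 304, 308 or 324 (adjusted p 0.0561 to 0.0741). Reads shared by the 2 paralogues could have been divided between them in ways the files do not show, so their separate levels are uncertain.

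Among the feedback genes, Socs2 rose with EP in both fractions, Cish fell with EP in LP, and Socs1 and Socs3 did not pass the test in any luminal comparison. Socs2 encodes a STAT5-induced regulator best known for limiting growth hormone receptor signalling.

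**Figure D3:**
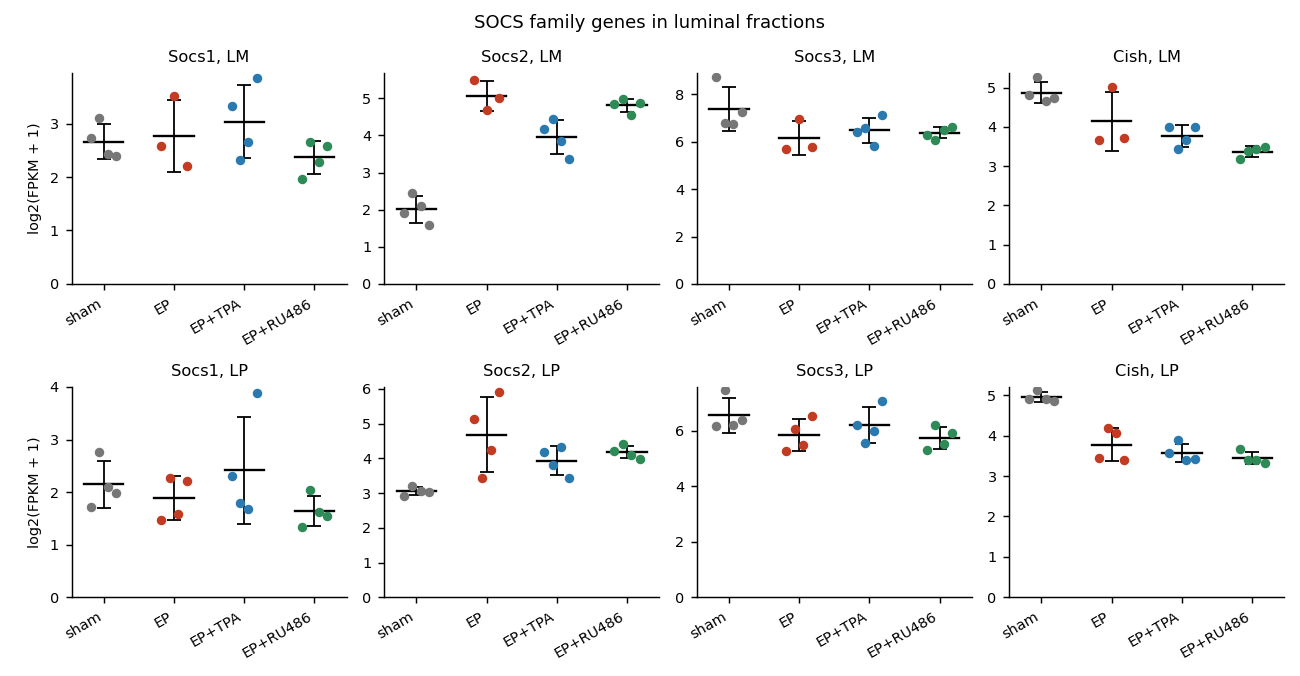
Rescaled levels of Socs1, Socs2, Socs3 and Cish as log2(FPKM + 1), 1 point per library, by treatment in LM (top) and LP (bottom). Lines with bars are mean ± SD. Socs2 lies above sham and Cish lies below sham in the antagonist groups of both fractions.

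In LM, Socs2 was 2.73, 4.50, 3.30 and 2.01 in sham (mice 305, 301, 310 and 326) and 43.7, 24.8 and 31.4 in EP (mice 306, 311 and 327). It was 17.1, 20.8, 13.3 and 9.30 in EP+TPA (mice 312, 328, 332 and 336) and 27.6, 30.6, 22.6 and 28.3 in EP+RU486 (mice 308, 313, 329 and 333). The EP+TPA libraries lay between sham and EP with no overlap on either side, whereas EP+RU486 overlapped EP. Socs2 rose by 3.05 with EP (SE 0.27, adjusted p = 6.77e-06) and exceeded sham with EP+TPA (1.94, adjusted p = 0.000107) and EP+RU486 (2.80, adjusted p = 2.89e-06). EP+TPA was lower than EP (-1.10, SE 0.27, adjusted p = 0.0314), a call lost when only the 2 groups were fitted (adjusted p = 0.17) and without EP mouse 306 or 327 or TPA mouse 312 or 336 (adjusted p 0.0577 to 0.117). EP+RU486 minus EP was -0.25 (95% interval -0.81 to 0.32, adjusted p = 0.544).

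In LP, Socs2 was 6.59, 8.15, 7.28 and 7.20 in sham (mice 301, 305, 310 and 326) and 34.2, 9.77, 18.1 and 59.5 in EP (mice 306, 311, 322 and 327). It was 17.1, 13.0, 19.3 and 9.74 in EP+TPA and 17.4, 20.2, 16.1 and 15.0 in EP+RU486. All 12 libraries given EP exceeded all 4 sham libraries. Within the EP group the library of mouse 311 was the lowest and that of mouse 327 the highest. Socs2 rose by 1.63 with EP (SE 0.38, adjusted p = 0.00404). EP+TPA minus EP was -0.75 (adjusted p = 0.198) and EP+RU486 minus EP was -0.51 (adjusted p = 0.379), and both passed without mouse 311 (-1.17, adjusted p = 0.0086, and -0.93, adjusted p = 0.0295). Against sham the antagonist groups differed by 0.89 (adjusted p = 0.206) and 1.13 (adjusted p = 0.0693), and both passed when only the 2 groups were fitted (adjusted p = 0.0212 and 0.000151).

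Cish encodes a STAT5-induced SH2 protein that acts on cytokine receptors. In LP it was 29.1, 33.9, 29.2 and 27.9 in sham (mice 301, 305, 310 and 326) and 9.95, 17.2, 15.7 and 9.51 in EP (mice 306, 311, 322 and 327). It was 10.9, 13.9, 9.56 and 9.68 in EP+TPA and 11.7, 9.60, 9.51 and 9.002 in EP+RU486. All 12 libraries given EP lay below all sham libraries. Cish fell by 1.18 with EP (SE 0.17, adjusted p = 0.000106) and was lower than sham with EP+TPA (-1.38, adjusted p = 0.000167) and EP+RU486 (-1.51, adjusted p = 5.57e-05). Stat5a and Cish thus moved in opposite directions over sham in LP.

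In LM, Cish was 27.0, 37.4, 24.3 and 25.9 in sham (mice 305, 301, 310 and 326) and 11.8, 31.4 and 12.3 in EP (mice 306, 311 and 327). It was 15.1, 9.77, 11.7 and 14.9 in EP+TPA (mice 312, 328, 332 and 336) and 8.06, 9.55, 9.84 and 10.2 in EP+RU486 (mice 308, 313, 329 and 333). The EP library of mouse 311 lay within the sham range, and all 8 antagonist libraries lay below it. EP minus sham was -0.73 (adjusted p = 0.0782), and without mouse 311 it was -1.17 (adjusted p = 0.00202). Cish was lower than sham with EP+TPA (-1.09, adjusted p = 0.00965) and with EP+RU486 (-1.49, adjusted p = 0.000913). EP+RU486 minus EP was -0.77 (adjusted p = 0.0681), and it passed on the values as deposited (-0.96, adjusted p = 0.0105) and without EP mouse 306 (adjusted p = 0.0459).

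Socs3, a feedback regulator of interleukin-6 family signalling, was 421, 111, 105 and 150 in LM sham (mice 305, 301, 310 and 326) and 50.3, 125 and 54.3 in LM EP (mice 306, 311 and 327). It was 55.4 to 138 in EP+TPA and 67.1 to 96.6 in EP+RU486. EP minus sham was -1.23 (adjusted p = 0.0673), and without mouse 311 it was -1.64 (adjusted p = 0.0223). In LP, Socs3 was 70.9 to 179 in sham and 37.7 to 92.5 in EP, which overlapped (-0.72, adjusted p = 0.149). The sham animal 305 was the highest sham library for Socs3 in both luminal fractions. Socs1, an inhibitor of JAK kinases, stayed between 2.89 and 13.4 in LM and between 1.54 and 13.7 in LP, with EP minus sham at 0.10 and -0.26 (adjusted p = 0.871 and 0.656).

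Counted over the members, the antagonists brought 0 rises and some falls relative to EP. In LM, 3 members fell with EP+TPA (Prlr, Jak2 and Socs2), where 4.55% of all genes passed (1.3% higher, 3.26% lower). With EP+RU486, 2 fell in LM (Prlr and Jak2), where 18% passed (8.93% higher, 9.1% lower). In LP, Prlr and Jak2 fell with each antagonist, where 18.2% of all genes passed with EP+TPA (7.64% higher, 10.6% lower) and 21% with EP+RU486 (9.22% higher, 11.8% lower). The groups did not overlap for 3 members with each antagonist in LM (14% of all genes with EP+TPA and 37.3% with EP+RU486), and in LP for 1 with EP+TPA (15.1%) and 0 with EP+RU486 (20.6%).

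Against sham, 3 members rose (Stat5a, Stat5b and Socs2) and 2 fell (Prlr and Cish) in LM with each antagonist. Of all genes, 16.2% passed with EP+TPA (6.72% higher, 9.48% lower) and 21.8% with EP+RU486 (10.3% higher, 11.5% lower). In LP, Stat5a rose and Prlr and Cish fell with EP+TPA, where 5.42% of genes passed (1.94% higher, 3.48% lower). With EP+RU486, Stat5a and Stat5b rose and Cish fell in LP, where 11% of genes passed (4.63% higher, 6.37% lower). Groups without overlap numbered 5 with EP+TPA (18.5% of genes) and 7 with EP+RU486 (30.7%) in LM, and 4 (14.1%) and 5 (23%) in LP. The comparisons with EP share the EP libraries and those with sham share the sham libraries, so they are not independent of each other.

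**Figure D4:**
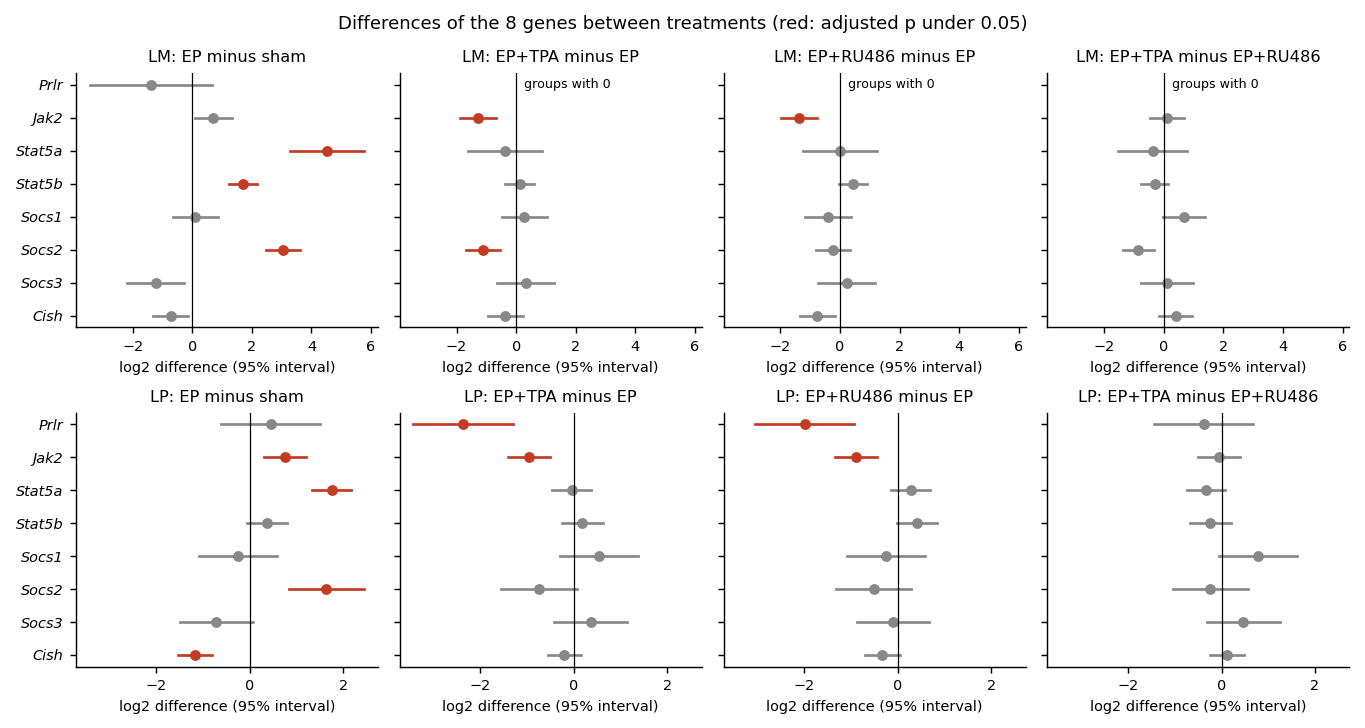
Log2 differences of the 8 genes with 95% intervals in LM (top) and LP (bottom) for EP minus sham, each antagonist minus EP, and EP+TPA minus EP+RU486. Red marks an adjusted p under 0.05. Prlr in LM is not drawn where a group was listed at 0, and no gene is red in the last column.

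TPA and RU486 are both steroidal compounds, and they were compared directly in each fraction, with unknown doses. None of the 8 members passed in LM or LP, and 0 of 11882 and 0 of 11416 genes did so by limma (1581 and 204 genes had an unadjusted p under 0.05). Socs2 in LM was the member whose groups did not overlap, 9.30 to 20.8 with EP+TPA and 22.6 to 30.6 with EP+RU486, a difference of -0.86 (95% interval -1.38 to -0.33, adjusted p = 0.329). In that comparison 6.3% of all genes did not overlap. The intervals of all other members included 0 in both fractions, and in LP 0 members had groups without overlap (1.63% of genes). Stat5a differed by -0.38 (-1.53 to 0.77) in LM and -0.33 (-0.75 to 0.08) in LP, Jak2 by 0.09 (-0.47 to 0.66) and -0.06 (-0.51 to 0.39), and Cish by 0.40 (-0.15 to 0.95) and 0.12 (-0.24 to 0.49). Intervals of this width do not show that the compounds acted alike.

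In MSC, no member passed in any of the 6 comparisons, and 0% of all 12188 genes did so by limma in each (200 to 851 genes had an unadjusted p under 0.05). No member had groups without overlap, against 0.722% to 2.14% of all genes. The MSC label covered libraries of unlike makeup: summed deposited basal markers ran from 133 to 4644 and summed endothelial markers from 0 to 1418. Sham mouse 326 and EP mouse 327 had high basal sums (4322 and 4278) and the lowest endothelial sums (38.1 and 0).

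**Figure D5:**
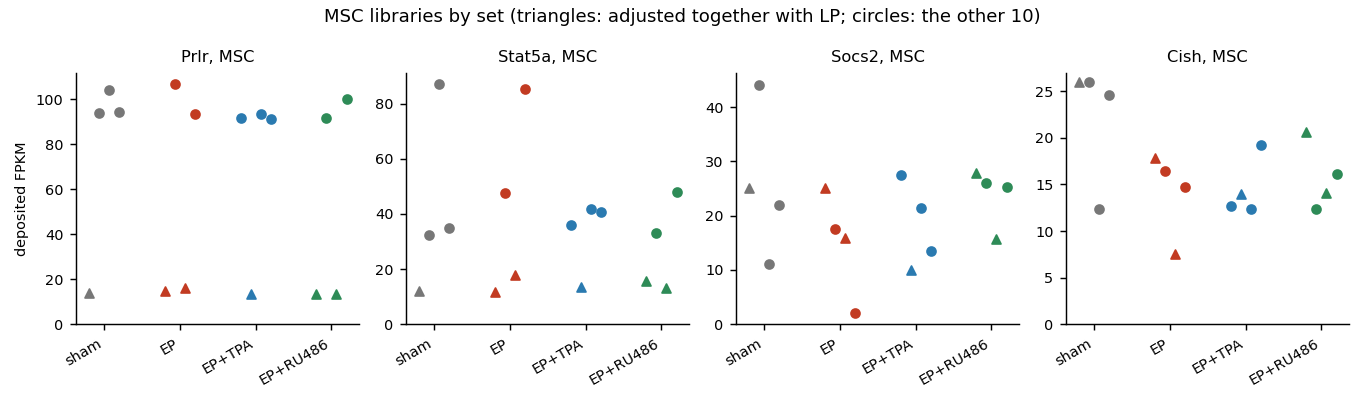
Deposited FPKM of Prlr, Stat5a, Socs2 and Cish in the 16 MSC libraries by treatment. Triangles are the 6 libraries adjusted together with LP and circles are the other 10. Prlr splits by set (13.5 to 16.1 against 91.2 to 106.9) and not by treatment.

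Deposited Prlr in MSC was 13.5 to 16.1 in the 6 libraries that shared their adjustment with LP and 91.2 to 106.9 in the other 10, whatever the treatment. The set therefore fixed its level, and the fits carried a term for it. The lowest Prlr values of these sets were 13.5 and 91.2, so the MSC libraries lay at or close to the lowest. Such values can be levels below the shift, which a set term does not repair. Prlr in MSC is therefore not read as unchanged by treatment. Socs2 was 27.7, 46.8, 9.54 and 23.9 in sham (mice 305, 310, 326 and 334) and 31.5, 16.3, 20.5 and 1.54 in EP (mice 306, 311, 322 and 327). The 2 endothelial-poor libraries, of mice 326 and 327, were the lowest of their groups. The difference was -1.04 (95% interval -2.40 to 0.31, adjusted p = 0.939). Cish was 28.8, 27.6, 10.7 and 26.8 in sham and 22.4, 15.3, 9.73 and 11.1 in EP for the same mice, with a difference of -0.74 (95% interval -1.40 to -0.08, adjusted p = 0.904). Both passed only when libraries were weighted (adjusted p = 0.0476 and 0.0171). Jak2 was 2.41 and 1.23 in mice 326 and 327 and 7.47 to 35.1 in the other 14 libraries. Stat5a was highest in those same 2 libraries, at 74.9 and 64.3, against 13.4 to 50.2 elsewhere.

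Other genes of the pathway were counted from 6 lists for EP minus sham, with the share of all genes passing being 19.7% in LM and 32.7% in LP. Of 16 tested cytokine receptors related to Prlr, 2 rose and 2 fell in LM, and 2 rose and 5 fell in LP. The leptin receptor Lepr rose (2.42 in LM, 1.19 in LP) and the oncostatin M receptor Osmr fell (-2.03 and -2.16). Il13ra1, a receptor chain for interleukin-13, fell in LM (-1.24), and Il6ra, the interleukin-6 receptor, fell in LP (-0.98). The list's median was -0.24 in LM and -0.16 in LP, beside -0.02 and 0.01 for all genes tested.

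Of the other Janus kinases and STATs, 1 rose and 3 fell of 8 in LM, and 1 rose and 2 fell of 7 in LP, with medians of -0.84 and -0.30. Stat3, which carries interleukin-6 family signals, fell by 0.93 in LM and by 0.89 in LP. Stat6, which carries interleukin-4 signals, fell by 0.96 and by 0.64, Stat2 fell by 1.05 in LM, and the kinase Tyk2 rose by 0.47 in LP. Thus Stat5a rose where Stat3 and Stat6 fell.

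Of the 7 other SOCS proteins and ligase partners tested, 0 rose and 1 fell in LM (Socs5, -1.02), and 1 rose (Rnf7, 0.37) and 2 fell (Socs4, -0.43, and Socs6, -0.38) in LP. Their medians were 0.04 and -0.16. Of 10 phosphatases and PIAS proteins, Ptpn1 fell in LM (-1.25), and Ptpn2 (-0.61), Pias1 (-0.50) and Pias2 (-0.34) fell in LP, with 0 rises and medians of -0.38 and -0.16. PTPN1 and PTPN2 are phosphatases that act on JAK kinases and STATs. Of 15 adaptors and kinases downstream of the receptor, 0 passed in LM (median -0.12), and 1 rose and 6 fell in LP (median -0.26). Those that fell most were Pik3r1 (-1.25), a regulatory subunit of PI3 kinase, Irs2 (-1.22), an insulin receptor substrate, and the kinase Tec (-0.56).

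Of 19 known prolactin and STAT5 target genes tested in LM, 1 rose, 4 fell and 14 did not pass, and of 18 tested in LP, 1 rose, 9 fell and 8 did not pass. The medians were -0.10 and -0.71. In LP, Lalba, which encodes the milk protein alpha-lactalbumin, fell by 3.94, Csn3, which encodes kappa-casein, fell by 3.75, and Btn1a1, which encodes butyrophilin of milk fat globules, fell by 3.53. In LM these 3 fell too and were listed at 0 in all 3 EP libraries. Csn3 and Elf5 also stood in the progenitor marker list, and the summed progenitor markers were low in the same EP libraries. Csn3 weighed heavily in that sum, so its fall and the low sum are not independent. Median Elf5 was higher in EP than in sham in LM (19.8 against 2.71) and lower in LP (15.5 against 26.3), and the EP and sham libraries overlapped in both. Tnfsf11, which encodes RANKL, was the gene that rose (2.73 in LP), and it was named after its value was seen.

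With EP+RU486 against EP, 7 of the 19 target genes rose and 1 fell in LM, where 8.93% of all genes were higher and 9.1% lower. In LP 7 rose and 4 fell of 18, where 9.22% of all genes were higher and 11.8% lower. With EP+TPA against EP, 2 rose and 1 fell in LM, where 1.3% of all genes were higher and 3.26% lower, and only 2 of all genes passed when the 2 groups were fitted alone. In LP 6 rose and 2 fell, where 7.64% of all genes were higher and 10.6% lower. The list medians over EP were 1.06 (EP+RU486) and 0.63 (EP+TPA) in LM and 0.44 and 0.61 in LP, against 0.00 to -0.02 for all genes. Summed progenitor markers were higher in these groups than in EP, as given above, except in the LM EP+TPA library of mouse 332. Its sum was 383, within the EP range of 357 to 507. The part of the progenitor markers in these counts was not tested.

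The genes whose pattern was most like that of a member were found by the mean absolute difference of z-scored log2 levels across libraries of the fraction. For Prlr they were Gipc2 (0.077), Stc2 (0.083) and Slc38a1 (0.108) over the 15 LM libraries, and Slc7a2 (0.153), Gipc2 (0.158) and Cd164 (0.174) over the 16 LP libraries. In LM, Prlr was listed at 0 in 3 of 4 EP+TPA and 4 of 4 EP+RU486 libraries. A gene at 0 in the same libraries would score as alike, so the LM values for Prlr are not compared with those for other members. For Stat5a they were Cryz (0.246), Trap1 (0.277) and Mettl1 (0.277) in LM, and Wipi1 (0.280), Isyna1 (0.298) and Chst8 (0.309) in LP. For Socs2 they were Gdpd5 (0.270), Slc27a3 (0.280) and Igbp1 (0.283) in LM, and Pxdn (0.268), Ggt1 (0.272) and Sephs1 (0.287) in LP. Gipc2 was the gene that appeared for Prlr in both fractions.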

How the data were processed

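The authors deposited 1 table for all 47 libraries. Per the labels' protocols, complementary DNA was made with SMART-Seq v4 and libraries with Nextera XT, for paired reads. The genome build mm9 and the tools STAR, Cufflinks and DESeq2 are named, without versions or order, per the submitters' processing notes. The deposited values have the scale of FPKM although the table is described as read counts. They are not whole, and exact values shared between libraries place them in 3 sets: 15 LM libraries, the 16 LP with 6 MSC libraries, and the other 10 MSC libraries. Set means were nearly equal for each gene (median absolute log2 deviation 0.0407), which removes level differences between sets.

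Values were rescaled within a set by median-ratio factors (0.867 to 1.25 in LM, 0.962 to 1.26 in LP, 0.527 to 1.32 in MSC), applied to the part above a gene's shared lowest value. limma 3.58.1 in R 4.3.3, with trend and robust moderation, was fitted on log2(FPKM + 1), all 4 groups of a fraction together, with a set term in MSC. Genes needed 3 libraries at 1 or more and 3 above the lowest value. P-values were Benjamini-Hochberg adjusted over all genes tested. The fit was checked on simulated data. A test of counts had been intended if the values were counts, and they were not.

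The members and gene lists were chosen with earlier results of these data known. All 8 members are named. Of each pathway list at most 3 genes per fraction are named, those with the largest differences among those passing for EP minus sham. The likeness rule covered Prlr, Stat5a and Socs2. Alternatives were the deposited values without rescaling, a pseudocount of 0.1, no filter, only the 2 groups compared, library weights, and each library left out. In MSC they also covered no set term and the set of 10 alone. Mice are separate animals per treatment. Of the gene symbols, 27 that resemble dates were left out.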

Additional observations from a re-analysis of the deposited data

Results flagged for a closer look

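In each luminal group of 4 libraries, the highest or lowest library of each member was compared with the rest by its gap relative to the group's range. Of 56 such groups 4 held a library far from the others, and chance gives about 1 in 20. MSC groups were not examined in this way because each mixed libraries of 2 sets. Prlr in LM EP+TPA was 27.3 in mouse 332 and listed at 0 in the other 3. Socs1 in LP EP+TPA was 13.7 in mouse 336 and 2.21 to 3.93 in the others. Socs3 in sham was highest in mouse 305 in both luminal fractions, at 421 in LM against 105 to 150.0 in the others, and at 179 in LP against 70.9 to 83.8. The 2 Socs3 values come from the same animal.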

How the results depend on the processing

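No paired analysis was possible because the treatments of a fraction were given to different mice, and mouse numbers are shared only across fractions, which were not compared. Of 267 alternative counts of members passing, 256 stayed within 1.5 times the reported count. With library weights, 6 members passed for EP minus sham in LM, 5 for EP+TPA minus sham and 5 for EP+RU486 minus sham in LP, and 2 for EP minus sham in MSC. With only the 2 groups fitted, 0 passed for EP+TPA minus EP in LM, 1 for each antagonist minus EP in LP, and 5 for EP+RU486 minus sham in LP. With 1 library left out, the count ran from 3 to 5 for EP minus sham in LM and from 1 to 3 for EP+TPA minus EP in LM. The cause of these changes was not tested.

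Differences changed sign only where neither estimate passed. With library weights, Socs1 in LM EP minus sham was -0.01, Stat5a in LP EP+TPA minus EP 0.01, and Socs1 and Socs3 in LP EP+RU486 minus EP 0.03 and 0.24. On deposited values, Stat5b in LM EP+TPA minus EP was -0.03 and Jak2 in LP EP+RU486 minus sham 0.01. With 1 library left out in LM, EP minus sham ran from -0.27 to 0.38 for Socs1. EP+TPA minus EP ran from -0.01 to 0.64 for Socs1, -0.60 to 0.07 for Cish and -0.05 to 0.22 for Stat5b. EP+RU486 minus EP ran from -0.26 to 0.26 for Stat5a and -0.01 to 0.63 for Socs3. EP+TPA minus EP+RU486 ran from -0.11 to 0.33 for Socs3 and -0.06 to 0.24 for Jak2. In LP, EP+TPA minus EP ran from -0.27 to 0.13 for Stat5a and -0.01 to 0.34 for Stat5b, EP+RU486 minus EP from -0.30 to 0.13 for Socs3, EP+TPA minus sham from -0.22 to 0.52 for Socs1, and EP+TPA minus EP+RU486 from -0.14 to 0.07 for Jak2. In MSC, 96 of 816 alternative values had the other sign, and 0 of these passed in either fit.

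Without rescaling, the median over all genes of EP minus sham moved to 0.14 in LM and 0.24 in LP, and the share of passing genes that were higher moved from 52% to 68.4% in LM and from 51.1% to 80.4% in LP. For EP+RU486 minus EP it moved from 49.5% to 30.4% in LM and from 43.9% to 27.4% in LP, for EP+TPA minus EP in LP from 41.9% to 20.2%, and for EP+TPA and EP+RU486 minus sham in LP from 35.9% to 64.7% and from 42.1% to 75.5%. Rescaling above the lowest value of the set gave 65.4% for EP minus sham in LP. Over all genes, the count passing depended on the setting: in LM, EP minus sham ran from 911 to 4164 around 2336, EP+TPA minus EP from 2 to 2407 around 541, EP+RU486 minus EP from 1294 to 3287 around 2142, EP+TPA minus sham from 1092 to 3646 around 1925, EP+RU486 minus sham from 1666 to 5095 around 2587, and EP+TPA minus EP+RU486 from 0 to 5. In LP, EP+TPA minus EP ran from 900 to 3167 around 2080, EP+TPA minus sham from 334 to 1470 around 619, and EP+RU486 minus sham from 673 to 2650 around 1255. The highest counts came with library weights except in the comparison of the antagonists, and 911 came without EP mouse 327. In MSC, library weights gave 1086 genes for EP minus sham, 152 and 96 for EP+TPA and EP+RU486 minus EP, and 7 and 3 for them minus sham. Rescaling above the lowest value of the set, and leaving both MSC mice 326 and 327 out, were chosen after seeing the data. The read depth behind the values is unknown and limits what can be said of low levels.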
